A study of Homo sapiens with 5 samples.

Results

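The APOBEC3 genes encode cytidine deaminases and lie side by side on chromosome 22. Their rows were chosen as every gene of the deposited count table whose symbol begins with APOBEC3, which gave 4 of 16677 genes: APOBEC3B, APOBEC3C, APOBEC3F and APOBEC3G. The group was taken up because of APOBEC3G, which was chosen by its lower CPM and its fold change in the variant libraries, so its difference between the groups is given as a description with no test. APOBEC3A, APOBEC3D, APOBEC3H and the antisense gene APOBEC3B-AS1 were not analysed here. All cells were HEK293, a line of long standing that derives from human embryonic kidney, kept under basal culture conditions. The Control group had the genotype WT and 2 libraries. The rs11607019 group, called variant below, had 3 libraries of cells with a T-to-C change at that single-nucleotide variant, which the series places in SIRT3. The labels do not state whether libraries came from separate clones or cultures, so the spread between them may be technical.

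APOBEC3 enzymes turn cytidine into uracil in single-stranded DNA, and thereby damage the genomes of retroviruses and other copied elements. APOBEC3G and APOBEC3F are best known for blocking human immunodeficiency virus that lacks the viral protein Vif, which sends both enzymes for degradation. APOBEC3B is found mainly in the nucleus and is known as a source of mutations in tumours. APOBEC3C is a smaller enzyme with weak activity against that virus and is known for holding back LINE-1 retroelements. The family arose by repeated duplication, so its members are much alike in sequence.

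The likeness of the genes bears on every count below, since reads of 50 bases were counted. The zinc-binding motif of deaminases was searched in the GENCODE release 29 coding sequences (GRCh38). It was found at 1 site in APOBEC3C and at 2 sites in each of the other genes, and whether each site is catalytic was not examined. The last site of each gene is shown, as 105 bases from the codon of its zinc-binding histidine, to set APOBEC3G beside its relatives. This length was fixed and stops short of the last zinc-binding cysteine codon in APOBEC3B. Capitals mark bases that differ from the APOBEC3G stretch. All lie on the forward strand in a single coding exon, exon 3 of APOBEC3C and exon 6 of the others.
APOBEC3G, chr22:39086312-39086416: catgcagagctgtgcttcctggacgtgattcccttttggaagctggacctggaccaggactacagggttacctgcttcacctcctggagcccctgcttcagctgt
APOBEC3B, chr22:38991365-38991469: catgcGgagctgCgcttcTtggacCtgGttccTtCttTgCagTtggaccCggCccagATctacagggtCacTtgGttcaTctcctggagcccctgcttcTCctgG
APOBEC3F, chr22:39052095-39052199: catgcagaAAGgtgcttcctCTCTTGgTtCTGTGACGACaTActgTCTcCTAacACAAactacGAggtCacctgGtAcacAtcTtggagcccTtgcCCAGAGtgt
APOBEC3C, chr22:39017787-39017891: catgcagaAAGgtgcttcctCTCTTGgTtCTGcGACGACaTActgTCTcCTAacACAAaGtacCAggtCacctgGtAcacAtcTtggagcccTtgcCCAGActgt

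At this site APOBEC3G differed from APOBEC3B at 21 of the 105 bases, from APOBEC3C at 45 and from APOBEC3F at 46. APOBEC3C and APOBEC3F differed from each other at 4. The first sites of APOBEC3B and APOBEC3F were identical over the 105 bases. The first sites of APOBEC3F and APOBEC3G differed at 71 of the 105 bases. Ahead of that site, however, the first 142 coding bases of APOBEC3F and APOBEC3G are the same. They are shown because a read of 50 bases from within them cannot be assigned to either gene, and they span an intron in both (chr22:39077362-39079056 in APOBEC3G and chr22:39040961-39043061 in APOBEC3F).
APOBEC3F and APOBEC3G: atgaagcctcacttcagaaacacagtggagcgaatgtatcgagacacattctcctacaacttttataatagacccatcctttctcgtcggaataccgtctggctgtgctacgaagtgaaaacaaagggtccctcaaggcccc

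Each gene's longest coding transcript was cut into all its windows of 50 bases, and each window was looked up in the GENCODE transcripts of every other gene. Of the 1785 windows of APOBEC3G, 341 (19.1%) were identical to a stretch of another gene. APOBEC3F held 301 of them (16.9% of all windows), APOBEC3A held 40 and APOBEC3B held 3, while APOBEC3C and APOBEC3D held 0. Allowing up to 2 mismatches against another APOBEC3 gene, 65.0% of the APOBEC3G windows remained distinct, against 84.8% for APOBEC3C, 49.9% for APOBEC3F and 38.2% for APOBEC3B. APOBEC3B was thus the least distinct of the 4 genes, and 25.3% of its windows were identical to APOBEC3A. Of its exonic bases, 18.4% are annotated as exons of APOBEC3A too, and 12.9% lie on the antisense gene APOBEC3B-AS1. Bases annotated to both APOBEC3B and APOBEC3A can lie in the windows identical to APOBEC3A, so these shares do not add up. How the deposited counts treated reads with several matches, and whether they used the strand, is not given in the sources used here, so the levels of all 4 genes are uncertain to that extent.

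**Figure D1:**
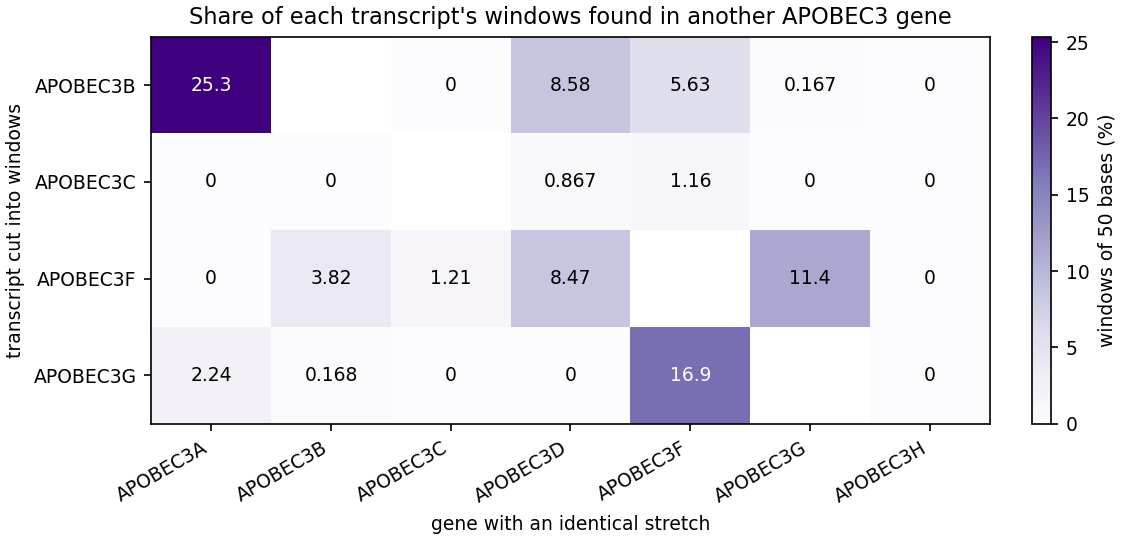
Share of the 50-base windows of each measured APOBEC3 transcript (rows, in percent) that occur unchanged in a transcript of another APOBEC3 gene (columns), with darker cells for larger shares and blank cells for a gene against itself. APOBEC3G shares most with APOBEC3F (16.9%) and none with APOBEC3C, and APOBEC3B shares most with APOBEC3A (25.3%).

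Total counts per library ran from 17122569 to 17596084. All 4 APOBEC3 genes were among the 16310 genes kept by the filter on low counts. Levels are given as CPM, each count as a share of its library's total after TMM (trimmed mean of M-values) scaling. The quasi-likelihood test of edgeR, adjusted over all tested genes, called 0 genes (0%) at a threshold of 0.05, and therefore 0 of the 3 APOBEC3 genes other than APOBEC3G. Its unadjusted p was under 0.05 for 1243 genes (7.62%). By adjusted p there were 0 genes in limma-voom and 32 in DESeq2's Wald test (0.213% of the 15045 genes to which it gave an adjusted p). None of these 3 APOBEC3 genes was among those 32. The HEK293 markers written down for a check of the cell type were in part measured: VIM, KRT8, KRT18 and PAX2 were among the tested genes and NEFL, NEFM, PAX8 and CDH2 gave no value here. The summed level of the 4 measured ones was 620.6 and 887.2 CPM in Control and ran from 735.2 to 1105 CPM in the variant.

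APOBEC3G (ENSG00000239713, chr22:39077005-39087743) was lower in every variant library than in either Control library. The Control libraries held 170 and 110 counts. The variant libraries held 24, 29 and 33 counts. In CPM these were 9.91 and 6.27 in Control 1 and Control 2, and 1.39, 1.66 and 1.86 in variant 1, variant 2 and variant 3. The lowest Control level was 3.37 times the highest variant level. The mean was 8.09 ± 2.57 CPM in Control (SD, n = 2) and 1.64 ± 0.239 CPM in the variant (SD, n = 3), a ratio of 4.94 of Control to variant. The fitted log2 fold change of the variant against Control was −2.30 (SE 0.32). Groups that did not overlap, with the variant lower, were found at 13.0% of all tested genes, and nothing is read from that beside a gene chosen for this contrast. Without Control 1 the log2 fold change was −1.93, and without Control 2 it was −2.59.

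**Figure D2:**
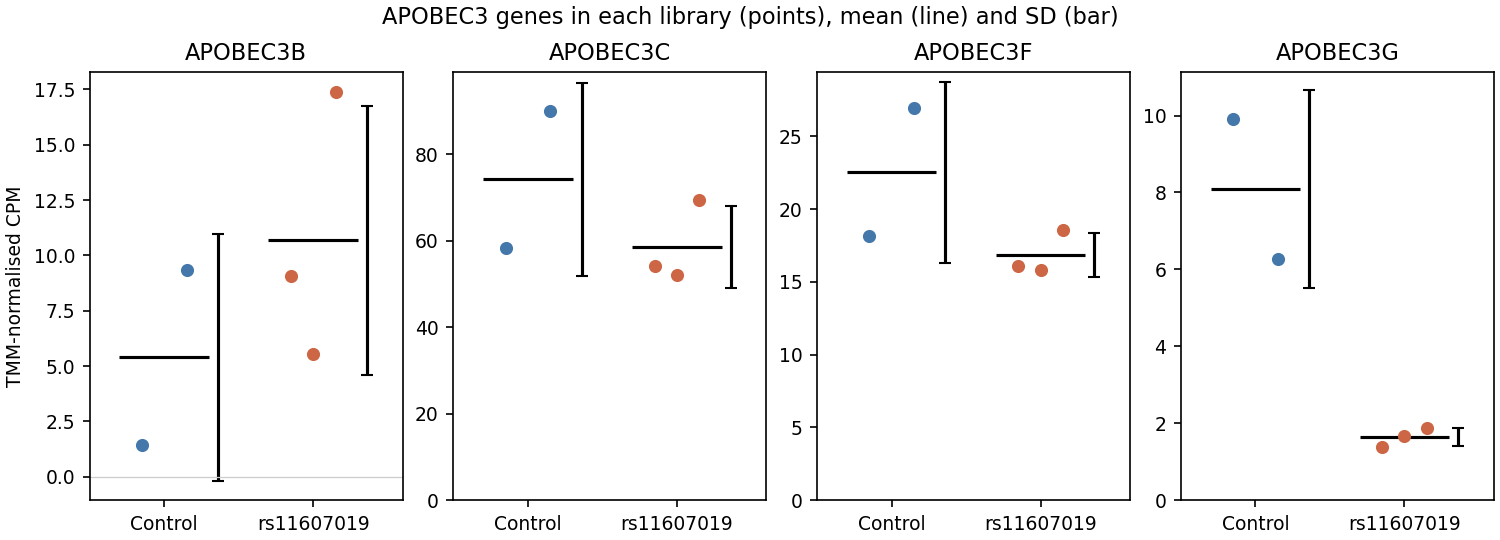
TMM-normalised CPM (vertical axes, each with its own scale from about 0) of the 4 APOBEC3 genes in each library, with the 2 Control libraries in blue and the 3 rs11607019 libraries in orange. Lines show group means and bars show the SD; the groups are apart for APOBEC3G, at 6.27 CPM and above against 1.86 CPM and below, and overlap for the other genes.

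APOBEC3F (ENSG00000128394, chr22:39040604-39053910), the gene with which APOBEC3G shares most sequence, overlapped between the groups. It stood at 18.1 CPM in Control 1 and 26.9 CPM in Control 2, and at 16.1, 15.8 and 18.6 CPM in variant 1, variant 2 and variant 3. Only Control 2 lay apart from the rest, and variant 3 was above Control 1. The log2 fold change was −0.42 (SE 0.22, 95% interval −0.92 to 0.08), and edgeR gave an adjusted p of 0.679. It was −0.68 without Control 1 and −0.11 without Control 2, so its size rested on the Control library that was kept. In all libraries APOBEC3F had the higher count of this pair, by a ratio of 1.83 in Control 1, 4.29 in Control 2, 11.6 in variant 1, 9.52 in variant 2 and 9.97 in variant 3.

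APOBEC3C (ENSG00000244509, chr22:39014083-39020352), the single-domain member, had the highest level. Its values were 58.4 and 90.0 CPM in Control 1 and Control 2, and 54.1, 52.2 and 69.5 CPM in variant 1, variant 2 and variant 3. As with APOBEC3F, Control 2 was highest and the groups overlapped. The log2 fold change was −0.34 (SE 0.22, 95% interval −0.83 to 0.15), for which edgeR's adjusted p was 0.720. It was −0.62 without Control 1 and 0.0052 without Control 2. The ratio of APOBEC3C to APOBEC3F was 3.22 and 3.35 in the Control libraries and 3.35, 3.29 and 3.74 in the variant libraries. These genes thus kept a similar proportion in every library, highest in variant 3, while the ratio of APOBEC3C to APOBEC3G ran from 5.89 in Control 1 to 39.0 in variant 1. Of the APOBEC3C windows, 1.16% are identical to APOBEC3F and 11.0% match it with up to 2 mismatches. Whether shared reads bear on this proportion was not tested.

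APOBEC3B (ENSG00000179750, chr22:38982347-38992804), the nuclear member, was the most variable of the 4 genes between libraries. It had 25 counts in Control 1 and 164 in Control 2, and 157, 97 and 308 counts in variant 1, variant 2 and variant 3. In CPM these were 1.46 and 9.35 in Control and 9.07, 5.57 and 17.4 in the variant. Control 1 was far below the other 4 libraries, variant 3 was highest, and Control 2 lay within the range of the variant. The Control libraries alone differed by a ratio of 6.42, and all libraries spanned a ratio of 11.9. The log2 fold change was 0.98 (SE 0.76, 95% interval −0.83 to 2.79), at an edgeR adjusted p of 0.761. It was 0.19 without Control 1, 2.87 without Control 2 and 0.44 without variant 3. Control 1, which had the lowest APOBEC3B level, had the highest APOBEC3G level. The ratio of APOBEC3B to APOBEC3G was 0.147 in Control 1, 1.49 in Control 2 and 6.54, 3.34 and 9.33 in the variant libraries.

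The 4 genes were compared with one another per length, as CPM per kilobase of the longest coding transcript. In Control the order was APOBEC3C at 26.3 ± 7.94, APOBEC3F at 8.36 ± 2.31, APOBEC3G at 4.41 ± 1.40 and APOBEC3B at 2.93 ± 3.03 CPM per kilobase (SD, n = 2). APOBEC3G, at 5.40 and 3.42, lay below both APOBEC3F values of 6.73 and 9.99, but was not separate from APOBEC3B at 0.790 and 5.07. In the variant the order was APOBEC3C at 20.8 ± 3.37, APOBEC3F at 6.25 ± 0.559, APOBEC3B at 5.79 ± 3.29 and APOBEC3G at 0.893 ± 0.131 CPM per kilobase (SD, n = 3). APOBEC3F and APOBEC3B overlapped there. APOBEC3G was last in all 3 variant libraries, and its highest level, 1.02, was below the lowest APOBEC3B level of 3.02.

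The share of APOBEC3G in the summed counts of the 4 genes shows the same data without any library scaling. It was 11.3% in Control 1 (exact 95% binomial interval 9.72% to 13.0%, counting error only) and 4.73% in Control 2 (3.90% to 5.67%). It was 1.72% in variant 1 (1.10% to 2.55%), 2.21% in variant 2 (1.49% to 3.16%) and 1.74% in variant 3 (1.20% to 2.43%). The Control libraries differed from each other beyond counting error, while the intervals of the variant libraries overlapped one another. Because APOBEC3G was chosen on these counts, the distance between the groups is again only a description. APOBEC3C made up 64.8% to 69.3% and APOBEC3F 17.3% to 21.1% of the counts in all libraries. APOBEC3B made up 1.66% and 7.05% in the Control libraries and 11.2%, 7.40% and 16.2% in the variant libraries.

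**Figure D3:**
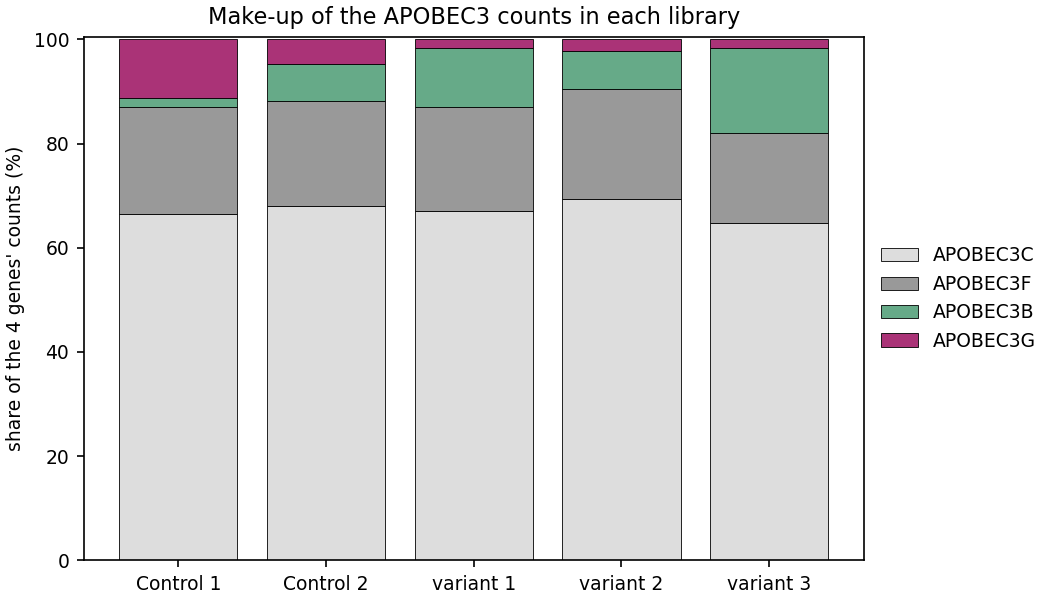
Make-up of the summed counts of the 4 APOBEC3 genes (vertical axis, percent of their counts) in each of the 5 libraries (bars). APOBEC3C and APOBEC3F keep similar shares throughout, while APOBEC3G takes 11.3% and 4.73% in the Control libraries and 1.72% to 2.21% in the variant libraries.

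To ask whether the cluster was lower as a whole, the other 3 genes were summed. They stood together at 78.0 and 126.3 CPM in Control and at 79.3, 73.6 and 105.5 CPM in the variant, so the groups overlapped. Of the 3 genes 2 had a lower and 1 a higher fitted level in the variant, and the groups overlapped at all 3. Their median log2 fold change was −0.34, beside a median of 0.00 (0.00300) over all tested genes. That median came from APOBEC3C, and it was −0.62 without Control 1 and 0.0052 without Control 2. The lower level of APOBEC3G in all variant libraries was therefore not shared by APOBEC3B, APOBEC3C or APOBEC3F as separated groups. The difference in log2 fold change between APOBEC3G and the other genes was not tested, because APOBEC3G was chosen for its value.

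The genes on either side of the cluster were examined in the same fit, as the 10 tested genes nearest on each side. At 0 of these 20 genes was the unadjusted p under 0.05 in edgeR's test (7.62% of all tested genes), and 1 had groups that did not overlap, with the variant higher (11.8% of all tested genes). That gene was SYNGR1, which encodes a synaptic vesicle protein, with 44.3 and 52.01 CPM in Control and 52.7, 69.3 and 63.3 CPM in the variant. CBX6, a Polycomb chromobox gene and the nearest on the APOBEC3B side, had a log2 fold change of 0.14 (SE 0.14), from 209.9 and 238.2 CPM in Control to 265.3, 225.9 and 247.6 CPM in the variant. CBX7, another chromobox gene and the nearest on the APOBEC3G side, had −0.27 (SE 0.30), from 9.50 and 15.9 CPM to 9.36, 8.50 and 13.7 CPM. The log2 fold changes of the 20 neighbours ran from −0.27 to 0.72 with a median of 0.15, beside 0.09 over the 425 tested genes of chromosome 22. The upper end was MGAT3, a glycosyltransferase gene, which had 1.74 without Control 1 and 0.13 without Control 2. The lower end was CBX7, which had −0.59 without Control 1 and 0.15 without Control 2. The median of the neighbours was −0.07 without Control 1 and 0.40 without Control 2.

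**Figure D4:**
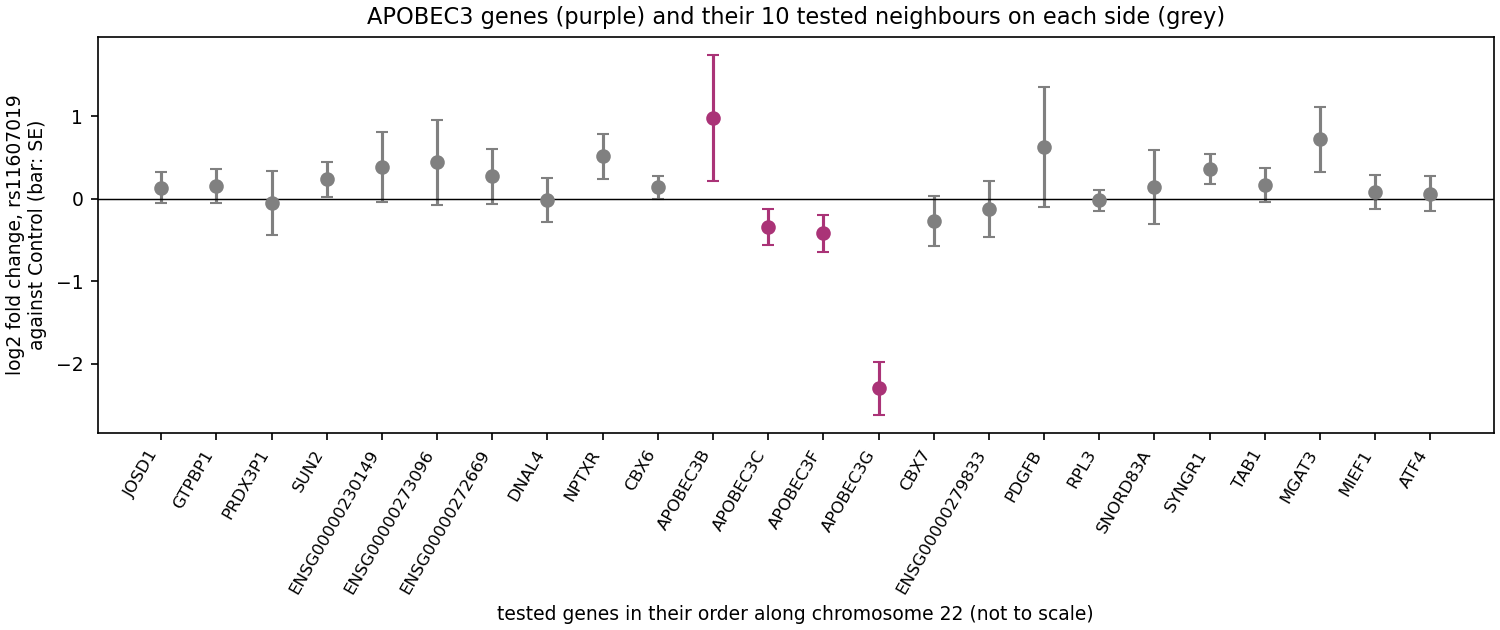
Log2 fold change of rs11607019 against Control (vertical axis, bars give the SE) for the 4 APOBEC3 genes in purple and their 10 tested neighbours on each side in grey, in gene order along chromosome 22. APOBEC3G lies at −2.30, while the neighbours lie between −0.27 and 0.72.

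The other cytidine and adenosine deaminases and the cofactors of the APOBEC1 editing enzyme had 10 tested members of 16 listed, and 0 passed the adjusted threshold in edgeR's test, with 0 at an unadjusted p under 0.05 (7.62% of all genes). Higher levels were seen in 3 members and lower levels in 7, beside 8229 and 8081 of all 16310 tested genes. The median of the members' log2 fold changes was −0.02. RBM47, an RNA-binding cofactor of APOBEC1, had the lowest value at −0.45 (SE 0.20), from 18.4 and 24.2 CPM in Control to 14.6, 16.1 and 16.1 CPM in the variant. ADAT1, which deaminates adenosine in transfer RNA, had the highest at 0.32 (SE 0.19). ADAR and ADARB1, which edit adenosine in double-stranded RNA, had log2 fold changes of 0.09 and 0.04, and ADAT2 and ADAT3, the subunits of another transfer RNA deaminase, had −0.06 and −0.02. DCTD, the deoxycytidylate deaminase, and CDADC1 had −0.02 and −0.01. SYNCRIP, also described as an APOBEC1 cofactor, had −0.01. CDA, which deaminates free cytidine, had −0.08 (SE 0.82), with 3 counts in Control 1 and 30 in Control 2. APOBEC1, APOBEC2, APOBEC4, A1CF and ADARB2 gave no value here.

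Genes that act with or around the APOBEC3 enzymes were counted by role, and 0 of them passed the adjusted threshold in edgeR's test. Of all 16310 tested genes 8229 were higher and 8081 lower. Whether the directions within a list differ from that was not tested, and the genes share the same libraries. For the repair of uracil in DNA and the handling of its single-stranded form, 27 genes were tested, of which 7 were higher, 20 lower and 2 at an unadjusted p under 0.05 (7.62% of all tested genes, which also applies to the lists that follow), and the median of their log2 fold changes was −0.06. RPA3, a subunit of the single-strand binding complex, had −0.57 (SE 0.20), APEX1, the main endonuclease for abasic sites, had 0.45 (SE 0.19), and DUT, which removes dUTP, had −0.28 (SE 0.16). For the ubiquitin ligase that Vif recruits, 10 genes were tested, 2 higher and 8 lower, with a median of −0.27. Its members RBX1, ELOC and CUL5 had −0.47 (SE 0.18), −0.45 (SE 0.24) and −0.38 (SE 0.21), and RBX1 was the 1 gene of the list at an unadjusted p under 0.05. Of 22 other antiviral restriction genes 8 were higher and 14 lower, with a median of −0.09, and KHNYN, the nuclease partner of ZAP, was the 1 gene at an unadjusted p under 0.05, with 0.52 (SE 0.22). IFITM3, which blocks viral entry, and EIF2AK2, the kinase PKR, had −0.79 (SE 0.37) and −0.29 (SE 0.19) there. Of 16 partners of APOBEC3 ribonucleoprotein particles 9 were higher and 7 lower, with a median of 0.02, and RO60, AGO3 and HNRNPR had −0.43, −0.26 and −0.17. Of 37 genes for factors known to control APOBEC3 expression, 18 were higher and 19 lower, with a median of −0.01. Among these ETS1 and MYBL2 had 0.42 (SE 0.29) and 0.23 (SE 0.17).

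Leukocytes are a known site of high APOBEC3G expression, so their markers were read beside it. Of 13 markers 4 were tested (LCP1, CORO1A, CD8A and CD4), and the others, among them PTPRC, CD3D, CD3E, CD2, MS4A1, ITGAM, CD14 and LAPTM5 gave no value here. The summed level of the 4 was 169.1 and 210.2 CPM in Control and 174.5, 184.7 and 184.7 CPM in the variant, most of it from LCP1, a gene of the actin skeleton. The groups overlapped, and the median log2 fold change of the 4 was 0.03. CD4 stood at 0.758 and 0.399 CPM in Control and at 0.405, 0.861 and 0.226 CPM in the variant.

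The pattern of APOBEC3G over the 5 libraries was matched against 15059 other genes with a mean of at least 1 CPM, by the root mean square distance between log2 CPM profiles centred on their own means. The nearest 5 genes were RPL23AP19, a ribosomal protein pseudogene, at 0.35, C1orf54 at 0.42, ENSG00000276390 at 0.43, ENSG00000213216 at 0.49 and IFIT1, an interferon-induced gene, at 0.51. Their profiles share the libraries and hence their depth, and low counts contribute to them. IFIT1 stood at 12.1 and 9.18 CPM in Control and at 3.76, 3.56 and 6.10 CPM in the variant. C1orf54 stood at 6.64 and 5.02 CPM in Control and at 1.62, 1.84 and 2.94 CPM in the variant. In all 5 genes each variant library was lower than both Control libraries, which follows from choosing them for their likeness to APOBEC3G. The distance from APOBEC3G was 0.97 for APOBEC3F, 1.01 for APOBEC3C and 2.06 for APOBEC3B. By distance these ranked 2007, 3084 and 15038 among the 15059 genes, so none was among the nearest 5 and only APOBEC3B was among the farthest. The distance also reflects the large difference for which APOBEC3G was chosen.

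**Figure D5:**
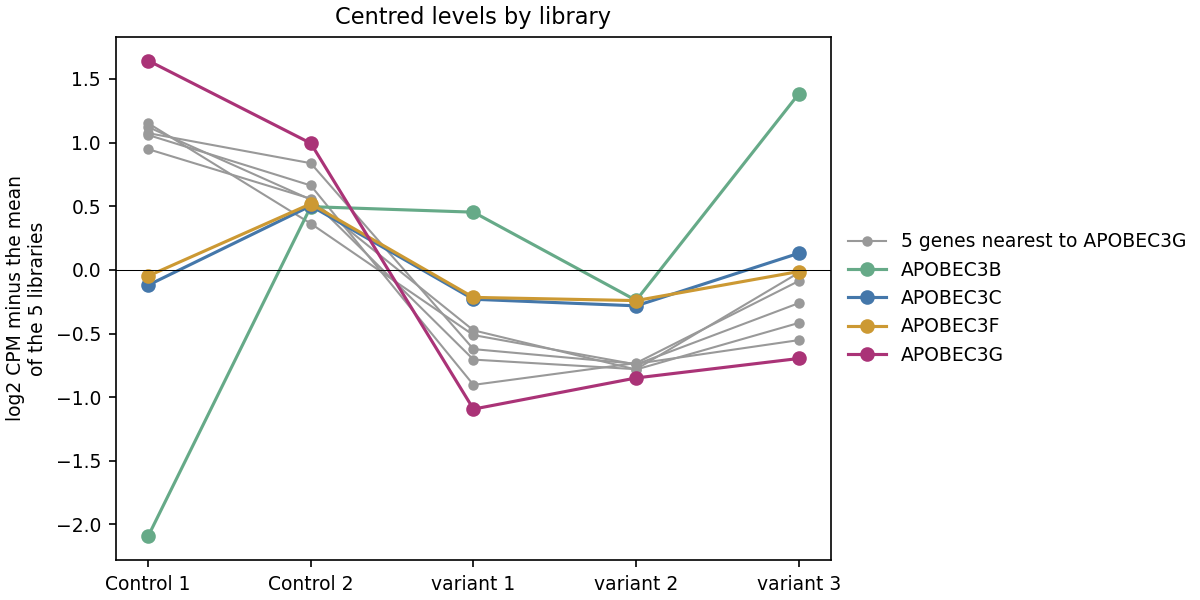
Log2 CPM of each gene minus its mean over the 5 libraries (vertical axis) by library, for the 4 APOBEC3 genes in colour and the 5 genes with the nearest profile to APOBEC3G in grey. APOBEC3C and APOBEC3F run together, APOBEC3B is lowest in Control 1 (−2.09) where APOBEC3G is highest (1.64).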

How the data were processed

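Messenger RNA of 5 HEK293 libraries was sequenced as strand-specific DNBSEQ single-end reads of 50 bases, per the labels' protocols. HISAT2, SAMtools and HTSeq with hg38 are named, without role or version, per the submitters' processing notes; annotation, strand setting and filters are not given in the sources used here. The authors deposited raw counts per Ensembl gene, as whole numbers. The lowest count was 3, so silent genes could not appear. Columns carry the library names of the labels. Symbols for 16627 of the 16677 identifiers came from the gene name table and for 46 from GENCODE release 29 (GRCh38), which also gave positions and transcripts.

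Here, filterByExpr kept 16310 genes, TMM scaled the libraries, and edgeR 4.0.16 (R 4.3.3) compared the groups by robust quasi-likelihood test with Benjamini-Hochberg adjustment over all tested genes (threshold 0.05). SEs come from the same fits. Log2 CPM used a prior count of 2. The fitted fold changes were checked on simulated counts with the same spread between replicates for all genes. Genes with low mean counts were not among those changed, so the check does not cover them. Alternatives were RLE and upper-quartile scaling, no filter, at least 10 counts in every library, DESeq2 1.42.0, limma-voom (limma 3.58.1), the replicate number as a block, per-library offsets from splines (5 degrees of freedom) of transcript length and GC content, and leaving out each library. The APOBEC3 members and all gene lists were chosen with earlier results of these data known. Genes named are all APOBEC3 rows, all other deaminases measured, the neighbours at either end of the cluster, the 3 smallest p-values of each other list, the tested markers of cell types, and the 5 nearest profiles. A result for a gene that this rule would name is not reported here. SYNGR1 and MGAT3 were named after their values were seen. The labels name no batch, so values within a batch cannot be given.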

Additional observations from a re-analysis of the deposited data

How the results depend on the processing

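APOBEC3G and APOBEC3F were lower in the variant in each of 13 alternatives, APOBEC3B was higher in each of 13, and APOBEC3C was lower in 12. All alternatives use the same counts. Nothing is read from the direction of APOBEC3G, which was chosen for its lower level and had groups that did not overlap. The exception for APOBEC3C was the fit without Control 2, at 0.0052, and the fits that each left out 1 library ran from −0.62 to 0.0052 for it and also for the median of the 3 other APOBEC3 genes. In the same fits APOBEC3G ran from −2.59 to −1.93, and edgeR called between 0 and 4 genes, none of them an APOBEC3 gene. A fit that keeps 1 Control library assumes that it varies like the others. DESeq2's Wald test gave 32 genes, where edgeR's test of all libraries gave 0, and the cause was not tested. Of the 32, 1 was an APOBEC3 gene, APOBEC3G, which was chosen on this same contrast, so nothing is read from that call. Per kilobase the mean share of APOBEC3G in the cluster was 2.69% in the variant (1.89% by counts) and 11.4% in Control, because its transcript is the shortest of the 4. The log2 fold change of APOBEC3G was −2.27 with offsets for GC content and length. With the replicate block it was −2.37 and 0 genes passed. No Control library shares the number of variant 3, so that library adds nothing to this contrast, and the fit without it gave −2.40. Same-numbered libraries had correlations of deviations of 0.120 and −0.113. The deviations of the 2 Control libraries mirror each other, so these correlations cannot decide whether the numbers pair the libraries. The numbers were not taken to pair them. Over the alternatives 16 of the 20 neighbours took both signs. Depth limits the values of APOBEC3G in the variant libraries, which held 24 to 33 counts, and of APOBEC3B in Control 1, which held 25.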
